A study of Mus musculus with 95 samples.

Results

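The wild-type WDR5 peak list of E14 mouse embryonic stem cells held 2176 peaks, and 1453 of them shared no base with any of the 1868 peaks of the wild-type PCGF6 list. These 1453 WDR5 peaks without PCGF6 are described here beside the other 723, which shared at least 1 bp with a PCGF6 peak (33.2% of the WDR5 list and 38.7% of the PCGF6 list). Both lists chose the members, so WDR5 fold enrichment and PCGF6 overlap are given as descriptions and were not tested. The study asked how the members of the PCGF family shape Polycomb complexes, and its 95 samples included 80 peak lists (1189711 peaks in all) and 14 RNA-seq libraries. All RNA libraries came from E14 cells grown on gelatin in serum with LIF and inhibitors of GSK3β and MEK1/2, 2 for each of 7 genotypes: wild-type, Pcgf1-/-, Pcgf2/4-/-, Pcgf3/5-/-, Pcgf6-/-, Pcgf1/2/4-/- and Pcgf3/5/6-/-. Knockouts were made with Cas9 and guide RNAs in isolated clones, and lines lacking several genes came from further editing of a knockout clone, so each genotype may stand on 1 clone. Each antibody gave 1 wild-type list, so the shares of peaks below have no replicate, and their 95% Wilson intervals (Newcombe intervals for a difference) cover counting error over peaks only.

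WDR5 is a WD-repeat protein that holds together the SET1 and MLL complexes, which methylate lysine 4 of histone H3, with ASH2L, RBBP5 and DPY30 as its core partners. The trimethylated form, H3K4me3, marks the starts of active genes, and it is often wider at highly transcribed ones. PCGF6 belongs to a variant form of Polycomb repressive complex 1 with RING1B, MGA, MAX, E2F6 and L3MBTL2, which binds germline genes in embryonic stem cells, and WDR5 has been found in preparations of that complex. SUZ12 is a core subunit of Polycomb repressive complex 2, which trimethylates lysine 27 of histone H3. USF1 is a helix-loop-helix factor that binds the E-box CACGTG near many gene starts.

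Many of the strongest members lay at genes of the translation machinery, and the stretches under some of their summits show the letters that the later comparison of words turns on. The sequences are those parts of the 300 bp around the summit that hold no annotated exon, read on the gene's strand from NCBIM37 (mm9), with each CCATCC or CCATCCG of that strand or its complement in capitals. Rpl32, Rpl11 and Rps7 encode proteins of the cytosolic ribosome, and Naca encodes a subunit of the complex that meets nascent chains at the ribosome. They are shown at chr6:115758481-115758715 (Rpl32, minus strand), chr10:127472740-127473014 (Naca, plus), chr4:135609057-135609262 (Rpl11, minus) and chr12:29320529-29320720 (Rps7, minus, with neither word). Eif4g3, a translation initiation factor gene at chr4:137549543-137549633 (plus), and an intergenic peak whose nearest gene is Tmem38b, at chr4:53877541-53877840 (plus), are shown as the strongest members with RING1B and SUZ12 and away from promoters and H3K4me3. Neither printed stretch holds the words.
Rpl32: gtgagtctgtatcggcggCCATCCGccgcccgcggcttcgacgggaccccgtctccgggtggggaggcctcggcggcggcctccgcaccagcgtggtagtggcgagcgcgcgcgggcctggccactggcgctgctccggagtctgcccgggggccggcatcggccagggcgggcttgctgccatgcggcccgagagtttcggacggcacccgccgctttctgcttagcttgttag
Naca: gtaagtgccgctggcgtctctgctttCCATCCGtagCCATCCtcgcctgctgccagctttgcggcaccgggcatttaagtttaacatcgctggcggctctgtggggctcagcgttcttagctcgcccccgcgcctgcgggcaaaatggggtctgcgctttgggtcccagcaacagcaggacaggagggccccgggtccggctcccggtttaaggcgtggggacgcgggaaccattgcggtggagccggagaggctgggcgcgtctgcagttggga
Rpl11: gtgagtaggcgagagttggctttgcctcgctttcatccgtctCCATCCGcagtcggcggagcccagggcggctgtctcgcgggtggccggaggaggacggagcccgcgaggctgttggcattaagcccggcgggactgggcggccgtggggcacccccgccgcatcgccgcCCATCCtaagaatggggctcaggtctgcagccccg
Rps7: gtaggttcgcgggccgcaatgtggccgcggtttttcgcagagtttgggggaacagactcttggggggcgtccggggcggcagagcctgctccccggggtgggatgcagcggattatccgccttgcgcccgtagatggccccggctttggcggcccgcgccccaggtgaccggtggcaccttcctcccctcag
Eif4g3: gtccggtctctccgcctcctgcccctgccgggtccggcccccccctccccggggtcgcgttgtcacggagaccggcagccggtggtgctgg
Tmem38b: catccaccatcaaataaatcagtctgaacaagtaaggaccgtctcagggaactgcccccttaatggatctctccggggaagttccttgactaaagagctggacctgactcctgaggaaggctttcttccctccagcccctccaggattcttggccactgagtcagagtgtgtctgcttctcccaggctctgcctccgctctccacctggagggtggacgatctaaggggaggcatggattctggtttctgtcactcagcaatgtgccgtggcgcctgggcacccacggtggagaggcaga

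Most members lay far from PCGF6 in the list that defined them, but many carried PCGF6 peaks in other, longer lists. The median gap to the nearest wild-type PCGF6 peak was 218282 bp, and 28 members had one within 500 bp and 8 within 100 bp. Just inside the rule were peaks at Sox11 (gap 3 bp, WDR5 fold 6.97), a neuronal transcription factor gene, at Rprm (8 bp, 6.97), a cell cycle arrest gene, and at Me2 (45 bp, 8.44), a malic enzyme gene. Just outside it were peaks at Prkra (4 bp shared, fold 6.97), Sart3 (22 bp, 7.71) and Hdac2 (26 bp, 8.44). PCGF6 lists of other lines, also E14 cells, differed in length. They came from Pcgf1-/-, Pcgf2/4-/- and Pcgf3/5-/- cells, from Ring1a-/-_Ring1bfl and Ring1a/b-/- cells, and from cells with the hairpins shCtr (control), shMGA, shMGAdHLH, shE2F6 and shE2F6-MGAdHLH, several of which target partners of PCGF6. The list from cells with a control hairpin held 7451 PCGF6 peaks and overlapped 35.6% of the members and 98.9% of the WDR5 peaks with PCGF6. The Pcgf2/4-/- list of 12842 peaks overlapped 55.8% of the members, and the Pcgf3/5-/- list of 1571 peaks overlapped 7.78%. In all, 546 members (37.6%, interval 35.1 to 40.1%) overlapped none of the 10 other PCGF6 lists, against 4 of the WDR5 peaks with PCGF6 (0.553%). The list of PCGF6 ChIP in Pcgf6-/- cells, which had 0 counts of Pcgf6 mRNA, overlapped 37 members (2.55%) and 7.88% of the peaks with PCGF6.

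Gene starts held the great majority of members. Of the 1453 members, 1280 (88.1%, interval 86.3 to 89.7%) lay within 2.5 kb of an annotated transcript start, 35 lay in introns, 40 in exons and 98 between genes. The 3 members on the mitochondrial sequence have no nearest gene and no sequence window here. Among the WDR5 peaks with PCGF6, 621 (85.9%) lay at promoters, and the difference of 2.20 percentage points had an interval from -0.737 to 5.35, which includes 0. A start lay inside the peak itself for 826 members (56.8%), close to the 56.7% of the other class. Promoters with starts on both strands within 2.5 kb made up 13.1% of the members (191 peaks) and 8.71% of the peaks with PCGF6, a difference of 4.43 points (1.6225 to 7.03). The 300 bp windows at summits were GC-rich in both classes, with median GC shares of 66.3% and 66.0%, while windows at the starts of all protein-coding genes had 58.0%.

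Among the factors and marks compared, RING1B differed most between the classes. RING1B peaks overlapped 201 members (13.8%, interval 12.2 to 15.7%) against 486 WDR5 peaks with PCGF6 (67.2%), a difference of -53.4 points (-57.1 to -49.4). SUZ12 overlapped 216 members (14.9%, 13.1 to 16.8%) against 288 (39.8%), a difference of -25.0 points (-29.0 to -21.0). Where members had RING1B they mostly had SUZ12 too. Both lists overlapped 177 members (12.2%), and RING1B without SUZ12 overlapped 24 (1.65%), against 275 (38.0%) and 211 (29.2%) of the peaks with PCGF6. Members that also avoided the PCGF6 list of the control hairpin had RING1B at 4.92% and SUZ12 at 6.52%, and members with a −log10 q of at least 10 had RING1B at 9.22%. The marks that the Polycomb complexes lay down followed the same order: H3K27me3 overlapped 102 members (7.02%) against 23.7%, and H2AK119ub1 overlapped 13 (0.895%) against 6.78%. That H2AK119ub1 list held only 1741 peaks, so its low shares depend on its length. The longest lists of this mark, from Pcgf3/5-/- and Pcgf2/4-/- cells, held 128786 and 121944 peaks. They overlapped 74.0% and 21.3% of the members against 95.3% and 56.8% of the peaks with PCGF6. PCGF2 overlapped 219 members (15.1%) against 29.9%, and its list from Pcgf2/4-/- cells, with 1050 peaks, overlapped 8.40% against 7.75%, while the short PCGF1 and PCGF3 lists, with 736 and 223 peaks, overlapped 1.86% and 1.31% of the members against 7.47% and 8.02%.

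USF1 overlapped 284 members (19.5%, interval 17.6 to 21.7%) and 236 WDR5 peaks with PCGF6 (32.6%), a difference of -13.1 points (-17.1 to -9.16). Among peaks free of RING1B and SUZ12 the order was the same: USF1 overlapped 260 of 1213 such members (21.4%) and 87 of 224 such peaks with PCGF6 (38.8%), a difference of -17.4 points (-24.3 to -10.8). None of RING1B, SUZ12 and USF1 overlapped 953 members (65.6%) against 137 peaks with PCGF6 (18.9%), a difference of 46.6 points (42.7 to 50.2). H3K36me3, a mark of transcribed gene bodies, overlapped 74 members (5.09%) and 1.80% of the other class.

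**Figure D1:**
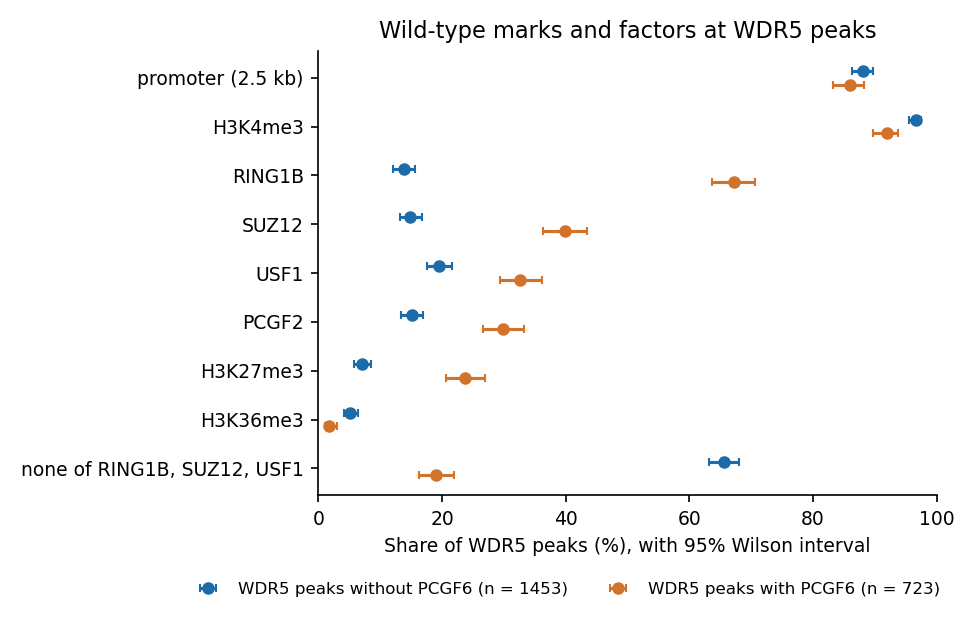
Share of WDR5 peaks (x axis, percent) that lay at promoters or overlapped each wild-type mark or factor (y axis), for the 1453 peaks without and the 723 with PCGF6; points are shares and bars are 95% Wilson intervals. RING1B was at 13.8% of the peaks without PCGF6 and at 67.2% of those with it, while the promoter shares (88.1% and 85.9%) lay close together.

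Polycomb peak lists of the knockout lines differed in length and were called separately, so their overlaps with the members are set side by side without a comparison of levels. RING1B lists overlapped 16.0% of the members in Pcgf1-/- cells, 23.0% in Pcgf2/4-/-, 16.9% in Pcgf3/5-/-, 10.6% in Pcgf6-/- and 7.43% in Pcgf3/5/6-/-. The 2 Pcgf1/2/4-/- lists overlapped 10.0% and 8.88%. For the WDR5 peaks with PCGF6 the Pcgf6-/- and Pcgf3/5/6-/- lists, with 5563 and 3068 peaks, overlapped 20.6% and 12.6%, and the Pcgf1/2/4-/- lists, with 2051 and 1814 peaks, overlapped 79.0% and 77.2%. SUZ12 lists of the knockouts overlapped between 11.3% (Pcgf1/2/4-/-) and 20.1% (Pcgf2/4-/-) of the members.

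H3K4me3 was both frequent and wide at the members. It overlapped 1404 of them (96.6%, interval 95.6 to 97.4%) against 665 WDR5 peaks with PCGF6 (92.0%), a difference of 4.65 points (2.59 to 7.003). The H3K4me3 peak at a member had a median width of 2363.5 bp (95% interval of the median 2276 to 2444), with quartiles at 1632 and 3326 bp, a 90th percentile at 4537.6 bp and a maximum of 10884 bp at Brd2. At WDR5 peaks with PCGF6 the median was 1496 bp, with quartiles at 929 and 2156 bp. Widths over 2 kb were found at 61.4% of the members and at 29.8% of the other class, and the median of all 40094 peaks of that list was 817 bp.

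The order of the median widths was the same in each H3K4me3 list, while that of the overlap shares was not. The Pcgf6-/- list overlapped 98.28% of the members and 98.34% of the peaks with PCGF6, a difference of -0.061 points (-1.13 to 1.28). The members' median width was 2479.5 bp in Pcgf1-/- cells, 2468 bp in Pcgf2/4-/-, 2449 bp in Pcgf3/5-/- and 2415 bp in Pcgf6-/-. That of the peaks with PCGF6 was 1570.5, 1544.5, 1571.5 and 1859 bp in those lists, whose own medians ran from 836 to 904 bp. Widths within kinds of peaks kept the order too. At peaks with RING1B and SUZ12 the medians were 1349 bp for members and 1163 bp for peaks with PCGF6. With USF1 but neither Polycomb factor they were 2745 and 2138 bp, and at promoters with H3K4me3 and none of the 3 factors they were 2585 bp (845 members) and 1778.5 bp (118 peaks).

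**Figure D2:**
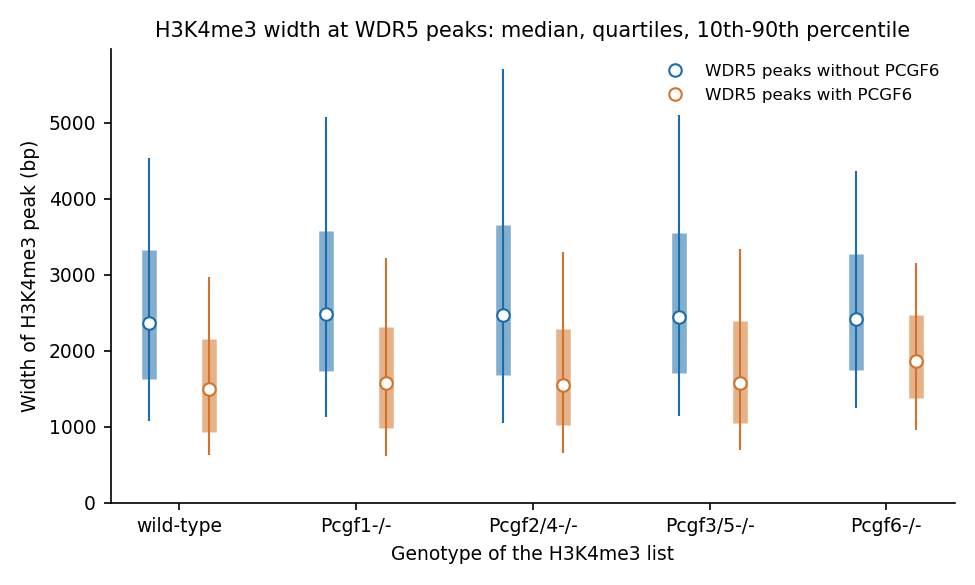
Width of the H3K4me3 peak (y axis, bp) at WDR5 peaks without and with PCGF6, for the list of each of 5 genotypes (x axis); circles are medians, thick bars quartiles and thin lines the 10th to 90th percentiles over peaks, with 1 list per genotype. The median of the peaks without PCGF6 was 2363.5 bp in wild-type and between 2415 and 2479.5 bp in the knockouts, above the other class in each list.

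A small group of members stood far above the rest in WDR5 fold enrichment, and ribosomal protein genes made up most of it. Fold enrichment is the authors' value for each peak over background, and its median was 7.34 for members and 8.01 for WDR5 peaks with PCGF6. Yet 75 members (5.16%) reached a fold of 20 and 58 a fold of 40, against 9 (1.24%) and 2 of the peaks with PCGF6. Of the 75 strong members 43 (57.3%) were nearest to a gene of a cytosolic ribosomal protein and 4 to a translation factor gene. Among the 10 strongest were those at Rpl32 (79.76), Naca (79.41), Brd2 (78.37), Rpl9 (78.16), Rps10 (77.79), Rps14 (72.45), Rpl11 (72.1), Ddx39b (71.84) and Rps7 (70.45). Brd2 encodes a bromodomain reader of acetylated histones, and Ddx39b an RNA helicase of splicing and mRNA export.

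Some features of these 10 peaks, which the rule did not use, were also those of most members. Of all members 88.1% lay at promoters, 13.8% overlapped RING1B, 14.9% SUZ12 and 19.5% USF1. All of the 10 strongest lay at promoters, none overlapped RING1B or SUZ12, and those at Rpl11 and Ddx39b overlapped USF1. Their H3K4me3 peaks were wide, 6625 bp at Rpl32, 4953 bp at Naca, 10884 bp at Brd2, 3976 bp at Rpl9 and 5234 bp at Rps10. The summits at Rpl32 (chr6:115758028-115759253), Rpl9 (chr5:65781750-65783024) and Rps7 (chr12:29319983-29321107) lay 134, 137 and 147 bp downstream of the start. At Naca (chr10:127472288-127473590) the summit lay 463 bp downstream, and at Brd2 (chr17:34255344-34256605) it lay 636 bp upstream of the nearest start.

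Strong and weak members differed in their surroundings. Of members with a fold of at least 20, 96.0% lay at promoters, 1.33% overlapped RING1B and 17.3% USF1, and the median H3K4me3 width was 4088 bp. Of the 56 with a fold from 10 to under 20, 85.7% lay at promoters, 5.36% overlapped RING1B and 23.2% USF1, with a median of 2627.5 bp. The 1322 below 10 had 87.7%, 14.9% and 19.5%, and a median of 2277.5 bp. H3K36me3 overlapped 38 of the 75 strong members (50.7%) and 74 of all 1453, while H3K27me3 overlapped 0 of the 75.

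Position on the gene differed as well. Among the 70 strong members near a start, the median summit lay 113 bp downstream of it (quartiles 55 and 149), 58 (82.9%) were downstream, and the median peak was 1068 bp long. Members below a fold of 10 had a median of 45 bp downstream and a peak length of 346 bp, and for WDR5 peaks with PCGF6 it was 15 bp, with 53.5% downstream. Other PCGF6 lists overlapped 21.3% of the strong members, 51.8% of the middle group and 65.2% of those below 10. The exceptions to the promoter rule among strong members included the intergenic peak nearest to Tmem38b (fold 30.09), 24349 bp from the start, with USF1 and no H3K4me3. Eif4g3 (52.84) was the strong member with RING1B and SUZ12, and its H3K4me3 peak was 914 bp wide.

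**Figure D3:**
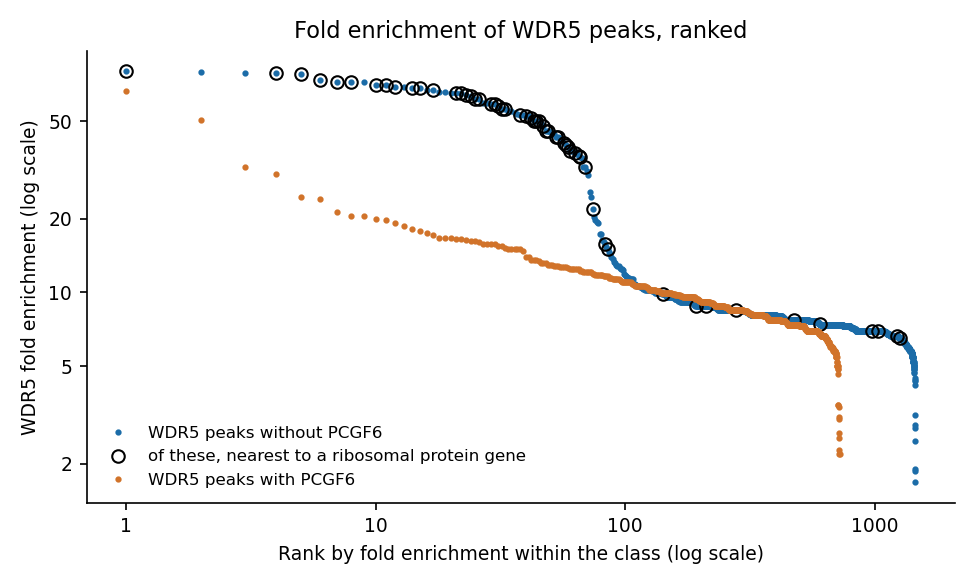
WDR5 fold enrichment (y axis, log scale) against rank within the class (x axis, log scale) for WDR5 peaks without and with PCGF6; open circles mark peaks without PCGF6 nearest to a cytosolic ribosomal protein gene. The 75 strongest peaks without PCGF6 reached a fold of 20 or more, against 9 peaks with PCGF6, and 43 of the 75 are circled.

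The 6 letters CCATCC were picked from these windows after their word counts were seen, so their share there is a description. They occurred, on either strand, in 52 of the 75 strong members' 300 bp windows (69.3%, interval 58.2 to 78.6%), in 18 of 56 windows of the middle group (32.1%) and in 233 of 1319 below a fold of 10 (17.7%). WDR5 peaks with PCGF6 held them in 16.3% of windows, and 2 of the 9 strong ones did. The starts of 22339 protein-coding genes held them in 16.8%. Extended by 1 letter to CCATCCG, which contains the shorter word, the shares were 44.0% (33 of 75), 7.14%, 3.94%, 3.06% and 1.94% in the same order, leaving out the 9 strong peaks with PCGF6. CCATCC lay on the gene's strand in 46 of the strong members' windows and on the other strand in 15, where a window with both counts in both. The median distance of the nearest match from the summit was 46.5 bp. Strong ribosomal protein peaks held CCATCC in 32 of 43 windows and strong peaks of other genes in 20 of 32. The 12 ribosomal protein peaks below a fold of 20 held it in 3 windows. The part of the Rps7 window printed above, which leaves out annotated exons, lacked it.

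The E-box CACGTG, searched on both strands, was in 12.8% of the members' windows (186), in 29.1% of those of WDR5 peaks with PCGF6 (209) and in 7.28% of windows at coding starts. It was more frequent under USF1 in both classes: 122 of the 284 members with a USF1 peak held it (43.0%) and 64 of 1166 without (5.49%), against 61.4% and 13.3% in the other class. TTCCCGCC, a form of the E2F site, was in 4.97% of the members' windows against 8.21% and, at coding starts, 2.91%. AAGATGGCG, a form of the YY1 site, was in 3.17% against 1.25%, and 2.29% at coding starts. CCGGAAGT, an ETS site, was in 6.55% against 4.31%, and 4.78% at coding starts. A match of letters is a description of the window and not a measured binding site.

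Of the gene groups compared, cytosolic ribosomal protein genes had the largest share nearest to members, though they were 51 of the members' 1341 genes. These are genes nearest to a member and to no WDR5 peak with PCGF6, which is 6.39% of the 21001 genes with an annotated start. Genes nearest only to WDR5 peaks with PCGF6 numbered 648 (3.09%). Of 79 cytosolic ribosomal protein genes with counts 51 (64.6%) were nearest to members and 1 to a peak with PCGF6. Their 55 peaks had a median fold of 49.9, ranging from 6.53 to 79.76. RING1B overlapped 0 of the 55 and USF1 10. Shares above that of all genes were also seen for splicing and hnRNP factors (13 of 67, 19.4%), chaperones (16 of 83, 19.3%), translation factors (12 of 64, 18.8%), proteasome subunits (7 of 39, 17.9%), DNA replication factors (6 of 37, 16.2%) and mitochondrial ribosomal proteins (10 of 76, 13.2%). The peaks of the mitochondrial ribosomal protein genes were weak, with a median fold of 7.27.

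Subunits of oxidative phosphorylation had 6 of 88 genes nearest to members (6.82%), zinc finger genes 29 of 362 (8.01%), and replication-dependent histone genes 4 of 68. Lysosomal genes, whose promoters often carry E-boxes, had 3 of 55 (Atp6v1a and Ctsl among them) and another 3 nearest to peaks with PCGF6. Of 133 developmental regulators 5 were nearest to members (3.76%), namely Foxj3, Foxo1, Hoxa3, Hoxa5 and Sox17, against 9 in the other class (6.77%). Of 20 germline genes 0 were nearest to members and 16 to WDR5 peaks with PCGF6. Of the genes of the complexes themselves, the MLL partner gene Paxip1 and the WDR5 partner gene Rbbp5 were nearest to members, as were L3mbtl2 and Pcgf6 of the PCGF6 complex. Of 18 pluripotency genes the members' were Esrrb and Klf5. Aminoacyl-tRNA synthetases had 4 of 34 genes, host genes of small nucleolar RNAs had 1 of 12 (Gas5), and the USF and MYC family had 1 of 11 (Mxd3).

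RNA libraries held between 2147968 and 7848161 counts. Libraries of the same genotype were not stated to be separate cultures or clones, so p-values measure only the spread between these libraries. The wild-type libraries agreed within sampling noise (chi-square per degree of freedom 0.951 over 13931 genes, against 1.19 to 21.3 for the other pairs) and may be 1 library, so the main counts of calls are also given with their counts summed as 1 sample. Pcgf6 had 0 counts in both Pcgf6-/- libraries but 42.0 and 37.2 CPM (counts scaled to library size) in the libraries labelled Pcgf3/5/6-/-, against 36.2 and 34.3 in wild-type, so no direction below is read as the loss of PCGF6 there. Pcgf1 was lowered in both lines that lack it, from 66.1 and 61.04 to between 0.534 and 4.81 CPM, while the mRNA of Pcgf2, Bmi1 and Pcgf3 was not called lowered in the lines edited in those genes. Pcgf5 stood at 12.98 and 10.8 CPM in wild-type, 5.48 and 4.60 in Pcgf3/5-/- and 16.4 and 13.5 in the libraries labelled Pcgf3/5/6-/-. The 7 stem cell markers (Pou5f1, Nanog and others) summed to 1170.2 to 2837.7 CPM with none at 0. The 5 primitive endoderm markers were at 0 in wild-type and summed to 41.2 to 46.2 CPM in Pcgf6-/- and 43.6 to 55.4 CPM in the libraries labelled Pcgf3/5/6-/-, of which Dab2 alone gave 38.5 to 42.5 and 40.8 to 50.7 CPM, while Gata4 was at 0.1245 and 0.153 CPM in Pcgf6-/-. The 5 fibroblast markers summed to 10.8 to 15.0 CPM in wild-type and to 26.96 to 37.0 CPM in those 4 libraries. The 4 trophoblast markers summed to 109 and 118.9 CPM in wild-type and 225 and 227 CPM in the libraries labelled Pcgf3/5/6-/-, and the 3 mesendoderm markers to 55.2 and 49.4 CPM in wild-type and 7.35 CPM in both Pcgf6-/- libraries. The 3 neural markers, mostly Tubb3, summed to 82.6 and 84.8 CPM in wild-type, 9.21 and 15.3 in Pcgf2/4-/- and 169 and 172 in the libraries labelled Pcgf3/5/6-/-. Their part in the results below was not tested, and in bulk RNA fewer cells of a type and less RNA per cell cannot be told apart.

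The median level of genes nearest to members was higher than that of genes nearest to WDR5 peaks with PCGF6 in each genotype. Per length, and with no filter on low counts, the 1329 of the members' genes with an exon length had a median of 16.1 and 16.0 CPM per kb of exon in the wild-type libraries (quartiles of their mean 4.06 and 50.8). The median was 3.55 for 642 genes of the other class and 1.56 for 20819 genes of the count table with a single annotated locus. The members' medians were 14.9 in Pcgf1-/-, 14.9 in Pcgf2/4-/-, 14.8 in Pcgf3/5-/-, 15.1 in Pcgf6-/-, 13.6 in Pcgf1/2/4-/- and 13.7 CPM per kb in the libraries labelled Pcgf3/5/6-/-. Those of the other class were 3.71, 2.92, 4.13, 6.43, 3.16 and 6.07 in the same order. Genes of strong members (fold of at least 20) had a wild-type median of 69.1 CPM per kb, against 14.8 for those below 10. Under 1 CPM per kb stood 13.5% of the members' genes, 31.6% of the other class and 46.5% of those 20819 genes.

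The members' share of called genes lay below that of all tested genes in 5 of 6 comparisons with wild-type, and differences between shares were not tested. Of the members' 1341 genes 1268 passed the filter on low counts. Calls are from edgeR's quasi-likelihood F-test, adjusted by Benjamini-Hochberg over 15464 genes, at 0.05, and all 6 comparisons share the wild-type libraries. In Pcgf1-/- cells 372 of the 1268 genes were called (29.3%), against 32.3% of all tested genes. Of these 143 were raised and 229 lowered, where 13.9% of all genes were raised and 18.4% lowered. In Pcgf2/4-/- cells 235 were called (18.5%), against 21.6% of all genes, with 77 raised and 158 lowered (all genes: 8.10% and 13.5%). In Pcgf3/5-/- cells 225 were called (17.7%), against 21.6%, with 85 raised and 140 lowered (all genes: 11.1% and 10.4%). Single libraries moved these counts: without wild-type replicate 1 or 2 they were 214 and 207 in Pcgf1-/-, 113 and 123 in Pcgf2/4-/- and 96 and 90 in Pcgf3/5-/-. The balance turned too, with 153 of 272 called genes raised without Pcgf1-/- replicate 2, and with 128 raised and 109 lowered without Pcgf2/4-/- replicate 1 and 63 and 45 without Pcgf3/5-/- replicate 2. At an absolute log2 fold change of at least 1 it was 60 and 58, 23 and 62, and 38 and 25 in the 3 lines. Over all tested genes that balance was 1073 and 1249, 563 and 1183, and 1058 and 698. In Pcgf1-/- a fit of the 2 groups alone called 161 of the members' genes raised and 153 lowered. Without Pcgf2/4-/- replicate 2 the count was 505, 256 raised and 249 lowered, without Pcgf3/5-/- replicate 1 or 2 it was 123 and 108, and a fit of the 2 groups alone called 70 in Pcgf2/4-/-.

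In Pcgf6-/- cells lowered genes outnumbered raised ones among the members, and raised genes outnumbered lowered ones in the other class. Here 444 of the members' genes were called (35.02%), against 46.5% of all genes, with 188 raised (14.8%) and 256 lowered (20.2%), where 27.8% of all genes were raised and 18.6% lowered. Of the 570 tested genes nearest to WDR5 peaks with PCGF6, 56.1% were called, 248 raised (43.5%) and 72 lowered (12.6%). In the libraries labelled Pcgf3/5/6-/- 617 of the members' genes were called (48.7%), against 53.3%, with 251 raised (19.8%) and 366 lowered (28.9%), where 28.0% of all genes were raised and 25.3% lowered. The other class had 265 raised (46.5%) and 101 lowered. Among changes of at least 1 on the log2 scale the members' balance turned, to 101 raised and 83 lowered in Pcgf6-/- and to 129 and 105 in the libraries labelled Pcgf3/5/6-/-, against 173 and 23, and 183 and 24, in the other class. Over all 15464 tested genes these counts were 3044 and 1131, and 3159 and 1533. Fits of the 2 groups alone called 731 members' genes in Pcgf6-/- and 964 in the libraries labelled Pcgf3/5/6-/-. The median log2 fold changes of members, other class and all genes were -0.06, 0.29 and 0.03 in Pcgf6-/- and -0.05, 0.44 and 0.05 in the libraries labelled Pcgf3/5/6-/-.

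Pcgf1/2/4-/- was the comparison in which the members' share exceeded that of all genes. There 597 were called (47.1%), against 37.0% of all genes and 36.5% of the other class, with 298 raised (23.5%) and 299 lowered, where 14.4% of all genes were raised and 22.6% lowered. The split depends on scaling, since DESeq2 called 376 raised and 244 lowered, and its size factors used in edgeR gave 359 and 253. The count was 297 and 339 without Pcgf1/2/4-/- replicate 1 or 2, and 333 and 358 without wild-type replicate 1 or 2. Without replicate 2 of the knockout 176 were raised and 163 lowered, and at an absolute log2 fold change of at least 1 it was 150 and 96. Over all tested genes 983 were raised and 1543 lowered by at least 1 on the log2 scale in Pcgf1/2/4-/-. In Pcgf2/4-/- cells DESeq2 likewise called 106 of the members' genes raised and 134 lowered.

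With the wild-type counts summed as 1 sample, fewer members' genes were called among 1276 tested. The counts were 241 in Pcgf1-/- (18.9%, against 22.2% of all genes), 147 in Pcgf2/4-/- (11.5%, against 14.2%) and 115 in Pcgf3/5-/- (9.01%, against 13.6%). They were 349 in Pcgf6-/- (27.4%, against 38.6%), 382 in Pcgf1/2/4-/- (29.9%, against 24.3%) and 517 in the libraries labelled Pcgf3/5/6-/- (40.5%, against 45.9%). Raised and lowered genes numbered 145 and 204 in Pcgf6-/-, 154 and 228 in Pcgf1/2/4-/- and 201 and 316 in the libraries labelled Pcgf3/5/6-/-, and the other class had 217 and 52 in Pcgf6-/-. The members' share stood on the same side of that of all genes in each comparison as in the fit of 14 libraries.

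**Figure D4:**
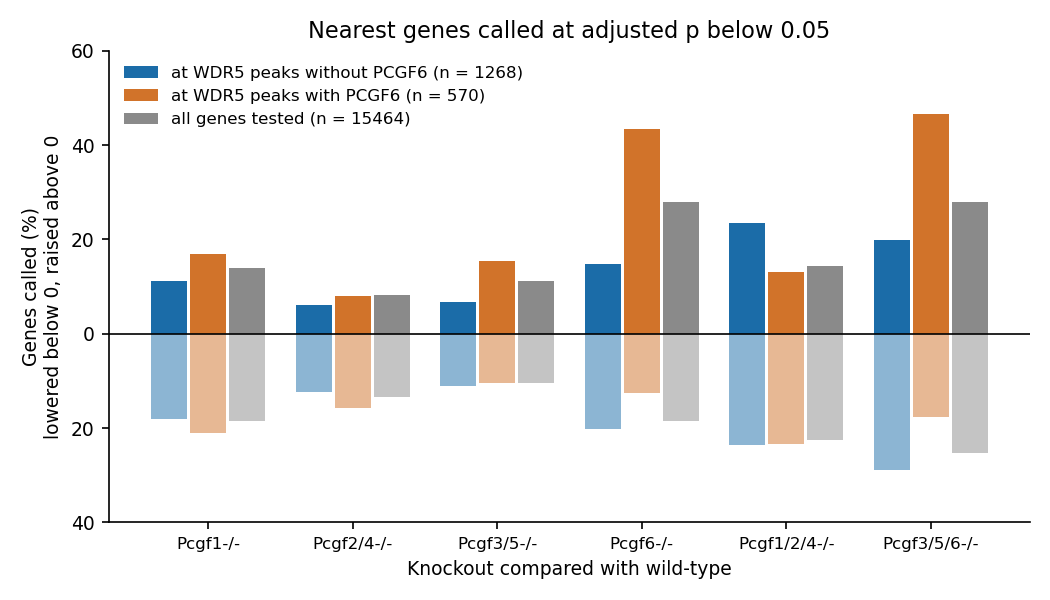
Percent of tested genes called raised (above 0) or lowered (below 0, paler) at adjusted p below 0.05 in each knockout (x axis), for genes nearest to WDR5 peaks without PCGF6 (n = 1268), with PCGF6 (n = 570) and all genes (n = 15464). In Pcgf6-/- 14.8% of the genes of peaks without PCGF6 and 43.5% of those with it were raised.

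The classes differed in level, so the shares are also given among genes of like level. There the members' share called lay above that of all genes at some levels and below it at others. It was 39.9% against 35.5% in Pcgf1-/- and 26.96% against 26.1% in Pcgf2/4-/- under 5 CPM per kb. From 5 to under 50 CPM per kb it was 23.5% against 21.5% in Pcgf3/5-/- and 59.0% against 57.8% in the libraries labelled Pcgf3/5/6-/-. In Pcgf6-/- it was below that of all genes at each of the 3 levels, with 54.6% against 59.8%, 39.7% against 44.4% and 9.68% against 13.8%. Under 5 CPM per kb in wild-type, 102 of 293 members' genes were raised in Pcgf6-/- (34.8%), against 62.0% of the other class and 47.5% of all tested genes. In the libraries labelled Pcgf3/5/6-/- the shares were 40.6%, 68.1% and 48.2%. From 5 to under 50 CPM per kb, 12.7% of the members' genes were raised in Pcgf6-/-, against 30.8% and 16.1%, and 27.01% were lowered, against 22.2% and 28.3%. At 50 CPM per kb or more, 158 of 341 members' genes were raised in Pcgf1/2/4-/- (46.3%), against 23.1% of the other class and 35.1% of all genes. With wild-type summed as 1 sample these were 14.7%, 6.15% and 9.53%.

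Calls at different kinds of members are set side by side here, with no test of their difference. Genes at members with RING1B and SUZ12 (127 tested, wild-type median 0.584 CPM per kb) were raised in 40.9% of cases in Pcgf6-/- (52 genes) and in 52.0% in the libraries labelled Pcgf3/5/6-/- (66 genes). All tested genes under 5 CPM per kb were raised in 47.5% and 48.2% of cases, so the share of these low genes lay below and near that background. At members with USF1 and neither Polycomb factor (245 tested, 28.2 CPM per kb) the shares were 7.76% and 17.96%, and at members with none of the 3 factors (872 tested, 20.5 CPM per kb) 12.2% and 14.6%, where 16.1% and 15.3% of all genes from 5 to under 50 CPM per kb were raised. Members that overlapped none of the other PCGF6 lists (510 tested genes, 26.5 CPM per kb) had 6.08% raised and 22.5% lowered in Pcgf6-/-. Those in at least 1 other list (785 tested genes, 10.8 CPM per kb) had 20.0% raised and 19.2% lowered. A gene with peaks of both kinds counts in both groups. Over all tested genes 27.8% were raised and 18.6% lowered in Pcgf6-/-, and from 5 to under 50 CPM per kb 16.1% and 28.3%.

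The genes named for each knockout are the 2 raised and 2 lowered of largest change among genes nearest to members, and several lie far from their peak. In Pcgf6-/- cells Gm4971, an annotated pseudogene whose reads may come from related copies, stood at 6.99 and 4.08 CPM in wild-type and at 118 and 124.1 CPM in the knockout (log2 fold change 4.45 ± 0.18 (SE), edgeR adjusted p 4.519e-10). Its USF1-bound WDR5 peak, with a fold of 14.28, lay 67339 bp away. Spesp1 (chr9:62118536-62129986), which encodes a sperm acrosome protein, stood at 9.42 and 8.86 CPM in wild-type and 113 and 115 in Pcgf6-/- (3.64 ± 0.17, adjusted p 1.073e-09). Its member peak lay at the start with a fold of 6.60. Both genes were raised in the libraries labelled Pcgf3/5/6-/- too, Gm4971 to 63.2 and 56.8 CPM and Spesp1 to 68.9 and 67.6 CPM (2.90, adjusted p 1.861e-08), and the groups did not overlap.

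Pcgf6 itself (chr19:47108109-47125380) was nearest to a member, with a WDR5 fold of 6.4 at its own promoter. Its 0 counts in Pcgf6-/- place it at least 76.8-fold lower than in wild-type, with a floor of 3 counts for each library. Pgc, which encodes the stomach proenzyme progastricsin, fell from 28.4 and 28.1 CPM to 2.37 and 1.23 CPM in Pcgf6-/- (-3.92 ± 0.24, adjusted p 1.515e-08). Its member peak lay 11144 bp away. Pgc was at 7.58 and 8.79 CPM in the libraries labelled Pcgf3/5/6-/-, and at 53.1 and 48.3 CPM in Pcgf3/5-/-, so its changes in different knockouts had opposite directions.

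In the libraries labelled Pcgf3/5/6-/- Cdkn1c (chr7:150644255-150646955), which encodes the imprinted cell cycle inhibitor p57, rose from 2.43 and 2.67 CPM to 130 and 123 CPM (5.62 ± 0.23, edgeR adjusted p 6.438e-10). Its member overlapped RING1B and SUZ12. In Pcgf6-/- it stood at 3.74 and 3.22 CPM, a log2 change of 0.45 that did not pass the test (adjusted p 0.279). Acox3, a peroxisomal acyl-CoA oxidase gene with its member 7897 bp away, fell from 59.9 and 58.7 to 7.90 and 5.75 CPM (-3.11 ± 0.22, adjusted p 9.294e-08). Axin2, a feedback inhibitor gene of Wnt signalling with its member 68034 bp away, fell from 76.3 and 78.3 to 14.5 and 10.1 CPM (-2.64 ± 0.21, adjusted p 2.621e-07). Both were lowered in Pcgf6-/- as well, Acox3 to 12.1 and 13.0 CPM and Axin2 to 27.5 and 22.7 CPM.

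In Pcgf1/2/4-/- cells the clock repressor gene Cry1 (chr10:84594447-84647799) rose from 26.4 and 25.3 CPM to 129 and 140 CPM (2.38 ± 0.11, edgeR adjusted p 3.051e-08), and it was at 75.8 and 77.4 CPM in the libraries labelled Pcgf3/5/6-/-. Camk2d, a calcium-dependent kinase gene whose start lay inside a member with RING1B, SUZ12 and USF1, rose from 1.86 and 1.13 to 10.1 and 8.13 CPM (2.59 ± 0.38, adjusted p 0.0002023). Nlrp4f, an oocyte-type NLR gene with its member 34759 bp away, fell from 14.6 and 15.9 to 1.60 and 1.36 CPM (-3.35 ± 0.45, adjusted p 8.613e-05), while Pcgf6-/- had 57.3 and 52.4 CPM. H2-M3, a non-classical MHC gene, had 2 counts in the knockout and 52 in wild-type, a ratio of 7.53 with a counting interval from 1.98 to 63.8. Its edgeR adjusted p of 0.01086 rose to 0.0723 and 0.0971 without one or the other knockout library.

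Pcgf1-/- lowered Dpysl5 (chr5:31013937-31101748), a neuronal growth gene with RING1B and SUZ12 at its start, from 7.99 and 7.46 to 0.765 and 0.229 CPM (-3.67 ± 0.45, edgeR adjusted p 4.283e-05). Gm4971 was lowered there too, to 0.547 and 0.229 CPM. Trpv4, a cation channel gene, rose from 2.00 and 3.09 to 22.2 and 16.2 CPM (2.93 ± 0.31, adjusted p 1.269e-05), and Dgkh, a diacylglycerol kinase gene, from 3.00 and 2.39 to 16.2 and 13.0 CPM (2.46 ± 0.27, adjusted p 1.497e-05). Their members lay 62712 and 124180 bp away.

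In Pcgf3/5-/- cells Kcnip3, a calcium-binding channel partner gene whose member carried RING1B and USF1 without H3K4me3, rose from 5.14 and 4.92 to 25.8 and 19.9 CPM (2.19 ± 0.26, edgeR adjusted p 5.009e-05). Cdkl4 rose from 5.57 and 3.38 to 26.9 and 16.5 CPM (2.30 ± 0.30, adjusted p 0.0001032), with its member 56899 bp away in an intron. Parp14, an ADP-ribosyltransferase gene of interferon responses, fell from 10.4 and 10.4 to 1.34 and 2.11 CPM (-2.63 ± 0.40, adjusted p 0.0004313) and was also lowered in Pcgf2/4-/- (-2.24, adjusted p 0.001508). Gm4971 was lowered to 1.47 and 1.15 CPM.

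In Pcgf2/4-/- cells Gulp1, an engulfment adaptor gene with SUZ12 at its member, rose from 3.85 and 3.24 to 12.2 and 11.1 CPM (1.69 ± 0.24, edgeR adjusted p 0.0003161), and Ccdc159 from 2.85 and 2.25 to 7.54 and 11.8 CPM (2.02 ± 0.32, adjusted p 0.0005794). Slmo1 fell from 4.14 and 6.33 to 0.419 and 0.639 CPM (-3.11 ± 0.56, adjusted p 0.001504). Gdpd5, a glycerophosphodiesterase gene, had 3 counts in the knockout and 39 in wild-type, a ratio of 9.40 with a counting interval from 2.99 to 47.6. Its call (edgeR adjusted p 0.006393) was lost without Pcgf2/4-/- replicate 2 (0.176).

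Of the members' 51 ribosomal protein genes 50 were raised in Pcgf1/2/4-/- by the edgeR test, with a median log2 fold change of 1.30, where 14.4% of all tested genes were raised. Of the whole list of 79 such genes 76 were raised, with a median of 1.32. The count changed with single libraries. Rpl32 stood at 104.9 and 108.9 CPM in wild-type and at 306 and 269 CPM in Pcgf1/2/4-/- (1.43 ± 0.37, adjusted p 0.008278). It stood at 81.6 and 157 in Pcgf1-/-, 268 and 97.6 in Pcgf2/4-/-, 99.7 and 139 in Pcgf3/5-/-, 96.4 and 114 in Pcgf6-/- and 183 and 200 CPM in the libraries labelled Pcgf3/5/6-/-. Replicate 1 of Pcgf2/4-/-, a library of 2764111 counts, was as high as the Pcgf1/2/4-/- libraries, with 2147968 and 2471117 counts, while replicate 2, with 7547984 counts, was at the wild-type level. The number of raised ribosomal protein genes was 10 without Pcgf1/2/4-/- replicate 1, 41 without replicate 2, 15 and 22 without one or the other wild-type library, and 22 with the wild-type counts summed.

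Raw counts of these genes moved little with depth. Summed over the list, they ran from 37081 to 55485, a range of 1.496 times, while library totals spanned 3.65 times. For the 662 other genes at 100 CPM per kb or more the sums ran from 448111 to 1031537, a range of 2.30 times. The ribosomal protein genes' share of counts was 0.764% and 0.779% in wild-type, 1.496% and 0.735% in Pcgf2/4-/-, and 1.73% and 1.55% in Pcgf1/2/4-/-. It was 1.195% and 1.27% in the libraries labelled Pcgf3/5/6-/-, with 3120754 and 2912086 counts. The part of depth in the raised calls was not tested. In the libraries labelled Pcgf3/5/6-/- 5 of the 51 were raised (22 at an unadjusted p under 0.05, DESeq2 9). Over all tested genes 28.0% were raised there, and 7.76% of those at 50 CPM per kb or more. Leaving out any single library of that comparison left at most 1, a replicate block and the summed wild-type each gave 1, while 32 were raised with no filter on low counts and 48 in a fit of the 2 groups alone. The edgeR test called 0 in Pcgf1-/- (1 lowered at an unadjusted p under 0.05, DESeq2 0), 0 in Pcgf2/4-/- (5 raised unadjusted, DESeq2 1), 0 in Pcgf3/5-/- and 0 in Pcgf6-/- (both 0 unadjusted and 0 by DESeq2). Of all tested genes at 50 CPM per kb or more, 12.4%, 4.83%, 3.21% and 13.8% were called in those lines, in the same order.

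**Figure D5:**
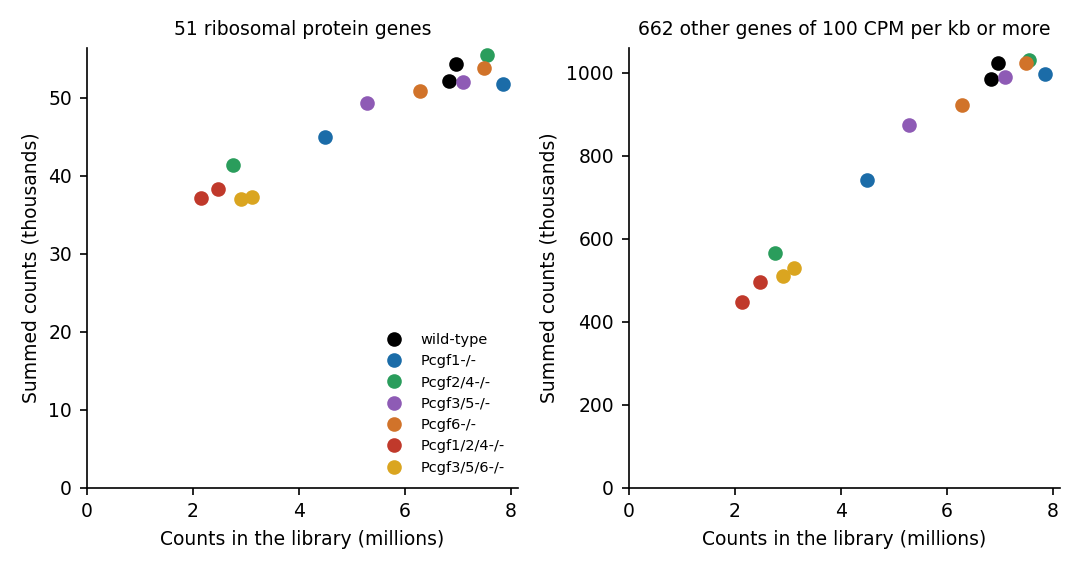
Summed raw counts (y axis) against total counts of the library (x axis) for the 51 ribosomal protein genes nearest to WDR5 peaks without PCGF6 (one panel) and for 662 other genes of high level (the other panel); each point is 1 of 14 libraries, coloured by genotype. The ribosomal protein counts lay between 37081 and 55485 while totals ran from 2147968 to 7848161.

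Other lists of highly expressed genes held raised genes in Pcgf1/2/4-/- as well, and the part of depth in them was not tested either. The edgeR test called 10 of 12 translation factor genes raised and 2 lowered, 12 of 16 chaperone genes raised and 1 lowered, 5 of 7 proteasome genes raised and 4 of 13 splicing factor genes raised. Of the whole lists 30 of 60, 30 of 79, 21 of 39 and 25 of 66 were raised, against 14.4% of all genes. Of all tested genes at 50 CPM per kb or more 35.1% were raised, and the lists were not limited to that level. With the wild-type counts summed as 1 sample the members' raised genes were 5, 3, 1 and 2, in the same order. Of all 15871 genes tested in that fit 1270 were raised and 2586 lowered, and 9.53% of those at 50 CPM per kb or more were raised. Zinc finger genes, many of which encode sequence-specific repressors, went the other way: of 29 nearest to members 13 were lowered and 0 raised (17 and 0 at an unadjusted p under 0.05, DESeq2 12 and 0, and 11 and 0 with wild-type summed), with a median log2 fold change of -0.57. Of all 346 tested zinc finger genes 143 were lowered and 27 raised, with a median of -0.38. Over all tested genes 22.6% were lowered and 14.4% raised in Pcgf1/2/4-/-. In the libraries labelled Pcgf3/5/6-/- 14 of the members' 29 were lowered and 2 raised, against 181 and 46 of the 346. Over all tested genes 25.3% were lowered and 28.0% raised in those libraries.

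Apart from Pcgf6 in Pcgf6-/- cells, single genes of chromatin complexes changed by less. Pcgf6 was also called lowered by edgeR in Pcgf3/5-/- (log2 fold change -0.60) and in Pcgf1/2/4-/- (-0.49). The call in Pcgf1/2/4-/- was lost with the wild-type counts summed as 1 sample. Paxip1, a partner of MLL complexes, stood at 83.9 and 84.7 CPM in wild-type and was lowered in Pcgf1-/- (log2 fold change -0.56, edgeR adjusted p 0.001313), Pcgf1/2/4-/- (-0.82, 0.0002152) and the libraries labelled Pcgf3/5/6-/- (-1.005, 8.086e-06). Rbbp5 was raised in Pcgf1-/- (0.34, edgeR adjusted p 0.02855), a call lost with the wild-type counts summed as 1 sample. L3mbtl2 was called in none of the 6 comparisons, and its log2 fold change in Pcgf6-/- was -0.12 (adjusted p 0.5049). Brd2, with 1 of the strongest peaks and the widest H3K4me3, stood at 166 and 161 CPM in wild-type and was raised to 301 and 309 CPM in Pcgf1/2/4-/- (0.90, adjusted p 0.0001258) and to 290 and 278 CPM in the libraries labelled Pcgf3/5/6-/- (0.80, adjusted p 0.0001018).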

How the data were processed

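The authors deposited 1 table of whole-number read counts per gene symbol, without normalization, and 80 peak lists, 1 for each ChIP-seq sample. In each list, per the file headers and the narrowPeak layout, the authors give fold enrichment over background (a ratio, column 7) and −log10 p and q values for each peak. The submitters' processing notes name bcl2fastq 2, TopHat2 2.1.1, Bowtie 1.2.2, Picard 1.62, HTSeq 0.7.2, DESeq2 3.7 and MACS2 2.1.1 with build mm9. Which filters and strand setting were used is not given in the sources used here. Fly spike-in scaling of the histone ChIP, described in the labels' protocols, was not used here. All WDR5 peaks lay within the chromosomes of NCBIM37 except on the mitochondrial sequence, and gene models were GENCODE M1.

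Overlap required 1 bp with the merged peaks of another list, promoters lay within 2.5 kb of a transcript start, and the nearest gene was that with the closest start among genes of the count table. Peaks were handled with python 3.11.15, pandas 2.3.3, numpy 2.4.6, scipy 1.17.1 and statsmodels 0.14.6, and plotted with matplotlib 3.10.9. Counts were tested with edgeR 4.0.16 in R 4.3.3 (quasi-likelihood fit of 14 libraries in 7 groups, TMM factors, filterByExpr, Benjamini-Hochberg threshold 0.05). DESeq2 1.42.0 was an alternative. On counts simulated for Pcgf6-/- over 14595 genes, the fit recovered 75 of 100 genes changed 2-fold and 92 of 100 changed 4-fold, with 7 false calls among 14401 unchanged genes. These counts were drawn with 1 common dispersion (0.01502) and with means in proportion to library totals. Real pairs varied in spread, with chi-square per degree of freedom from 0.951 to 21.3, so the simulation does not measure false calls in the real libraries. CPM values use library sizes multiplied by TMM factors, divided by exon length where given per kb. A ± is the standard error of the log2 fold change. The floor of 3 counts and the intervals cover counting error only, since reads carry no molecular identifiers.

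Named peaks were the 10 of largest fold, the strongest of each class and the 3 nearest to PCGF6. Named genes were, for each knockout, the 2 raised and 2 lowered of largest change that passed the test, averaged log2 CPM 2 or more with prior count 2, and showed no overlap between libraries of the groups, with complex subunits, targeted genes and the most expressed genes of each list, of which some are not reported here. The word CCATCC, the E-box shares by USF1 and the strength groups were chosen after the values were seen. Members and gene lists were chosen with earlier results of these data known. Lists were drawn up from gene symbols. Alternatives covered scaling, filters, peak thresholds, overlap rules, libraries left out and a replicate block.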

Additional observations from a re-analysis of the deposited data

How the results depend on the processing

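The counts of members' genes called kept within 1.5 times in 64 of 96 alternatives, the shares and the width moved by less than their intervals in 22 of 41, and of 240 values of single genes 237 kept their call, 3 lost it (Gdpd5 and H2-M3) and 0 reversed. In the order Pcgf1-/-, Pcgf2/4-/-, Pcgf3/5-/-, Pcgf6-/-, Pcgf1/2/4-/- and libraries labelled Pcgf3/5/6-/-, the counts were 118, 85, 63, 184, 246 and 234 with an absolute log2 fold change of at least 1, and 74, 43, 46, 83, 179 and 136 for WDR5 peaks with −log10 q of at least 10. With wild-type summed as 1 sample they were 241, 147, 115, 349, 382 and 517. Fits of only the 2 groups gave 70 in Pcgf2/4-/-, 731 in Pcgf6-/- and 964 in the libraries labelled Pcgf3/5/6-/-. Leaving out each library gave ranges of 207 to 272, 113 to 505, 90 to 123, 303 to 331, 297 to 358 and 465 to 496. Fewer changes or samples enter the settings with a minimum change, a q limit or a library left out, and the cause of the other shifts was not tested. Without genes at 50 CPM per kb or more, an alternative chosen after seeing the data, the counts were 340, 227, 220, 411, 422 and 539.

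The promoter share of 88.1% was 89.7% without members in the control hairpin's PCGF6 list, 89.7% at −log10 q of at least 10, 91.8% for members above the WDR5 list's median fold, 85.3% within 1 kb and 85.7% for coding genes only. The H3K4me3 share of 96.6% was 94.97% and 97.45% at the q limit and for members above the WDR5 list's median fold. The RING1B share was 4.92% without the control hairpin's peaks, 9.22% at the q limit and 11.7% with that limit on the RING1B list. The SUZ12 share was 6.52% and 10.06%, and the USF1 share 16.7% and 22.35%, under the first 2 of these settings, and USF1 was 13.97% for summits inside its peaks. The median H3K4me3 width was 2625, 2736.5 and 2447 bp without the control hairpin's peaks, at the q limit and for members above the WDR5 list's median fold, and 2626 bp with peaks within 1 kb merged.

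Replicate numbers did not pair the samples: differences between replicates correlated at -0.46 to 0.38 over 21 pairs of groups (median 0.01), and 3 lay above 0.1. With a replicate block the counts were 334, 204, 194, 414, 565 and 580. Depth limits low genes most, and 1 list per antibody leaves peak shares without a replicate. TMM against DESeq2 size factors moved the all-gene median of the log2 fold change by less than 0.1 in each comparison.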
